A study of Vitis vinifera with 66 samples.

Results

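Among the genes of Sauvignon Blanc berries, 150 were chosen as those with the lowest expression during a summer heatwave relative to berries without drought or heat. Heated, as used here, means under drought and heat together, and these cannot be told apart. They were selected on the measured counts themselves. Each count was scaled to a common library size (CPM), and rows of one gene ID were summed. For each gene, the mean of log2(CPM + 1) over 12 heated libraries was set against the mean over 12 libraries of the same dates that were not heated, and the difference is called L here. Of 29537 gene IDs in all, 12188 averaged 5 CPM or more in the unheated berries, and the 150 lowest L among these are the members. L ranged from -3.66 to -1.17 over the members, with a median of -1.45, where the median of all 12188 genes was -0.07. Log2 fold changes (log2FC) of tested comparisons are given with their standard error (SE). The choice fixed the values of L, so L and the other differences between heated and unheated berries on those dates are given as a description. Comparisons within T2 and T3, such as FH with H, drew on the same 24 libraries, so their counts of called genes are printed but nothing is read from them.

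The berries came from potted vines of Vitis vinifera cv. Sauvignon Blanc grown in a pair of tunnels. Control vines (C) were never stressed, F vines were flooded in spring around budbreak, H vines passed through the summer drought and heatwave, and FH vines were flooded in spring and then passed through the same drought and heatwave. During the heatwave the study measured FH berries as warmer than H berries by day and similar at night. FH and H are therefore not compared at equal berry temperature. Samples were taken at 46 (T0), 55 (T1), 59 (T2), 61 (T3), 70 (T4) and 74 (T5) days after anthesis, with 3 libraries for each of 22 groups, while H and FH were not sequenced here at T0. By T1 the soil water of H and FH had been lowered to 30% of field capacity without heat. T2 and T3 fell within the heatwave, with the thermostat set 5 °C above the other tunnel. The rises that the study measured in the air by day and in the berries were smaller than that setting. T4 followed a recovery and T5 was the ripe stage of the control berries. All H and FH vines stood in one tunnel and all C and F vines in the other, so the summer stress and the tunnel cannot be told apart. The study counts the drought as part of the heatwave, so heat and drought cannot be told apart at T2 and T3 either. The vines were young plants of a single clone on a single rootstock, berries were sampled without separating skin, flesh and seed in any stated step, and replicates are described in the study's methods as berries of separate vines.

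Around véraison the grape berry passes from a firm, acid, green fruit to a soft, sweet one, and many genes of growth and photosynthesis are switched off while ripening genes are switched on. Abscisic acid is known as a promoter of this step, auxin is known to delay it, and gibberellins and ethylene act around fruit set and the onset of ripening. Heat and drought are known to raise chaperones and to lower many genes of growth. In these data HSP101 (VIT_17s0000g07190), a chaperone of the heat response that is no member, had an L of 1.44. The files pair no gene ID with a function, so a role is given below only for the 7 members that the study names by ID together with one, and the members' tissue of origin within the berry was not tested.

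Library totals ranged from 15927671 to 24150978 counts. A ripening score was computed for each library from 11015 genes that changed from T0 to T5 in C, members left out, so that C has a mean of 0 at T0 and 1 at T5. T2 C replicate 1 and T3 C replicate 1 lay 0.296 and 0.242 below the other replicates of their groups on that score, and T4 FH replicate 2 lay 1.49 below its own on the mean level of the members (log2 scale). Counts of called genes and medians that rest on these 3 libraries are also given without them where they move by over 1.5 times. T5 F replicates 1 and 2 were closer to each other than any other pair (a chi-square of 1.87 for each degree of freedom, where the next pair had 8.97), although further apart than counting error, and were kept as separate samples. In such whole-berry RNA, fewer cells of a type and less RNA per cell cannot be told apart.

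The mean level of the 150 genes fell over ripening in C and dropped below it during the heatwave in H and FH. On the log2(CPM + 1) scale, C started at 5.63 ± 0.05 at T0, passed through 5.16 ± 0.04 (T1), 4.96 ± 0.41 (T2), 4.79 ± 0.21 (T3) and 4.32 ± 0.26 (T4), and ended at 3.46 ± 0.17 at T5 (SD, n = 3 each). H was at 4.70 ± 0.27 (T1), 2.71 ± 0.08 (T2), 3.91 ± 0.19 (T3), 4.31 ± 0.28 (T4) and finally 4.06 ± 0.27 (T5). H thus was lowest in the middle of the heatwave, was partly back at its end, and lay above C at T5. FH was at 4.84 ± 0.26 (T1), 3.31 ± 0.43 (T2), 3.07 ± 0.45 (T3), 3.66 ± 0.86 (T4) and finally 3.60 ± 0.11 (T5), so that its lowest mean came at T3. Without T4 FH replicate 2 the T4 mean of FH was 4.16. F began at 5.55 ± 0.08 at T0 and ended at 3.69 ± 0.10 at T5. At T1 it stood at 4.83 ± 0.08, and its highest library (4.92) lay below the lowest of C (5.14).

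**Figure D1:**
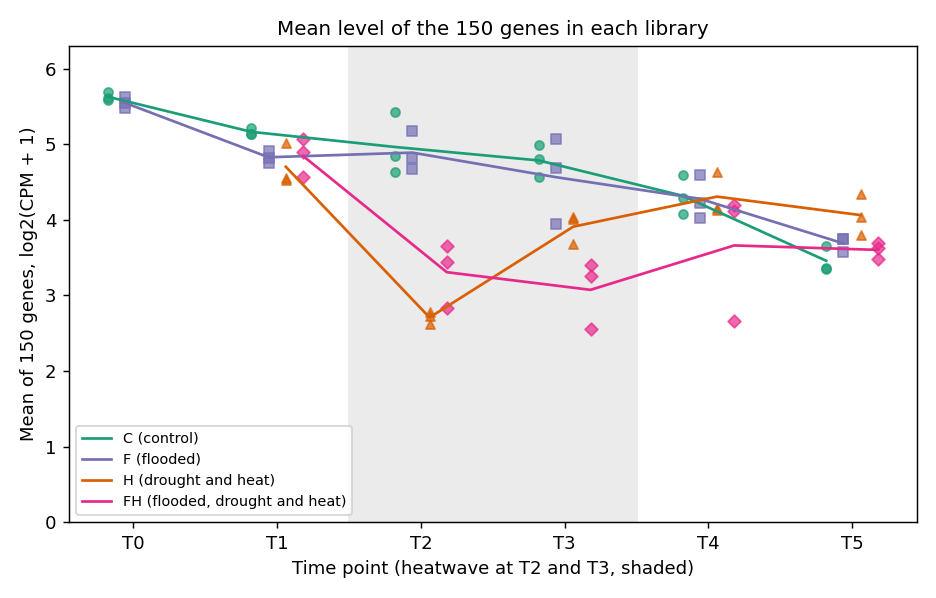
Mean of log2(CPM + 1) over the 150 genes (vertical axis) in each of 66 libraries at 6 time points (horizontal axis, heatwave shaded), by treatment, with lines through the group means. The 3 H libraries at T2 lie between 2.63 and 2.78, below every other library except T3 FH replicate 2 (2.56) and T4 FH replicate 2 (2.67).

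As a share of all counts, the members took 2.47 ± 0.10% in C at T0 and 1.16 ± 0.37% in C at T2, against 0.231 ± 0.029% in H and 0.378 ± 0.110% in FH at T2 (SD, n = 3). For 66 of the 150 genes the lowest of the 22 group means was that of H at T2, and for 21 it was FH at T3. In 41 genes it was a T5 group, so that these genes were lowest at the ripe stage rather than in the heat. The highest group mean was at T0 for 78 genes.

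At T2, H minus C had a median of -2.19 over the members and FH minus F a median of -1.54 (difference of group means of log2(CPM + 1)), and both were negative for all 150 genes, as the choice favours. By T3 the median of H minus C was -0.80 with 132 genes below 0, and that of FH minus F was -1.46 with 149 below 0. Within the heatwave 138 genes were higher in H at T3 than at T2, with a median rise of 1.16. In FH 51 were, with a median of -0.26. Over the 12188 genes with an L, 55.6% were lower at T3 than at T2 in H and 59.7% in FH. Going from T1 to T2, with 1 side in the choice and hence no test, H fell by a median of -2.0 and FH by -1.43, where C moved by -0.38 and F by 0.02. From T3 to T4 the medians were 0.38 in H, 0.55 in FH, -0.45 in C and -0.28 in F. Without T4 FH replicate 2 the median of FH was 1.08, and without T2 C replicate 1 that of C from T1 to T2 was -0.56.

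**Figure D2:**
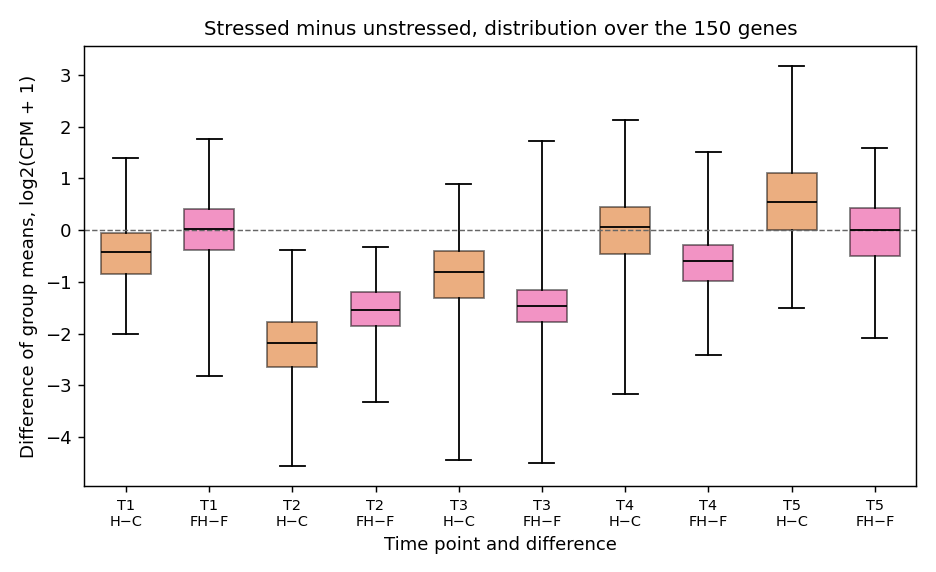
Difference of group means of log2(CPM + 1) between stressed and unstressed berries (vertical axis) over the 150 genes, for H minus C and FH minus F at T1 to T5 (horizontal axis). Boxes span the quartiles, the line is the median and whiskers reach the extremes. The T2 and T3 boxes are fixed by the choice of genes, and the median of H minus C moves from -2.19 at T2 to 0.55 at T5. That of FH minus F moves from -1.54 to 0.01.

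The lowest L of all, -3.66, was that of VIT_17s0000g00820. The 12 unheated libraries of T2 and T3 had 20.5, 44.8 and 104 CPM as lowest, median and highest, and the 12 heated ones had 0, 2.19 and 12.7. The groups did not overlap, and T2 H replicate 3 held no count of the gene. Such separation of 12 against 12 libraries was found for 15 of the 150 members, and 4 members had at least 1 heated library with 0 counts. These libraries chose the genes and the share over all genes was not computed, so nothing is read from the 15. In C the gene was low at T0 (7.29, 8.38 and 1.72 CPM), higher at T3 (38.7, 58.5 and 46) and low again at T5 (2.07, 1.78 and 1.81), and its C mean was highest at T3.

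VIT_17s0053g00990 (L = -2.98) had higher counts. Its T2 libraries held 416, 245 and 353 CPM in C and 397, 294 and 260.3 in F, against 18.7, 8.18 and 28.3 in H and 48.6, 55.5 and 37.2 in FH. H rose to 91.6, 130.3 and 89.7 CPM at T3, while FH stayed at 42.6, 12.7 and 21.1. All 3 FH libraries thus lay below all 3 H libraries at T3, and FH over H was at log2FC -2.06, SE 0.42. By T5 the gene had faded to 29.4, 22.4 and 20.6 CPM in C and stood at 121, 106 and 209.7 in H and 90.3, 95.8 and 89.1 in FH, with no overlap between stressed and unstressed berries (log2FC 1.76, SE 0.30, adjusted p = 1.23e-05).

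VIT_06s0009g00310 (L = -2.91), VIT_15s0048g02970 (-2.90) and VIT_18s0001g13210 (-2.21) were also low in the heated berries. VIT_06s0009g00310 had 0.102, 1.41 and 4.14 CPM as lowest, median and highest over the heated libraries of T2 and T3, and 3.38, 16.4 and 40.1 over the unheated ones. At T4 it stood at 12.1, 11.8 and 27.3 CPM in H and 10.8, 0.725 and 20.7 in FH, with T4 FH replicate 2 as the one low library. VIT_15s0048g02970 went from 1.69, 1.29 and 0.681 CPM in H at T2 to 29, 42.2 and 36.8 at T4, within the range of C at T4 (53.6, 41.8 and 22.3). VIT_18s0001g13210 had 0.154, 1.60 and 5.37 CPM over the heated libraries and 7.11, 11.1 and 49 over the unheated ones. It stood at 7.28, 14.1 and 14.8 CPM in H at T4 against 45.9, 30.6 and 17.8 in C, so that every H library was still under every C library.

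VIT_16s0022g00670 (L = -2.18) shows how much spread there was within unheated berries. Its C libraries at T2 held 966, 60.2 and 65.3 CPM and at T3 341, 21 and 53.1, and in both cases the high one was the replicate that also stood behind on the ripening score. Its heated libraries had 2.25, 20.6 and 77.7 CPM as lowest, median and highest, and the highest of these lay above several unheated ones. VIT_05s0077g01670 (L = -2.17) was at 1.40, 0.807 and 0.157 CPM in H at T2 and 10.9, 16.2 and 2.56 in C. Later it rose past C, to 37.4, 35.1 and 41.8 CPM in H and 48.1, 39.4 and 34.6 in FH at T5 against 12.6, 5.77 and 4.37 in C and 19.2, 16.4 and 10.6 in F (log2FC 1.88, SE 0.44, adjusted p = 0.000794).

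Of the members with a role named by the study, VIT_10s0116g00410 ranked 3 by L (-2.95). It is named there as GA2ox, a gibberellin 2-oxidase, an enzyme that inactivates gibberellins. Its T2 libraries held 0.116, 0.700 and 0.472 CPM in H and 1.06, 0.659 and 0.486 in FH, against 12.6, 32.5 and 7.35 in C and 15.3, 23.5 and 9.53 in F, with no overlap. At T3 H stood at 1.16, 3.41 and 2.99 CPM and FH at 1.01, 2.61 and 10.1. At T4 H stood at 13.5, 16.2 and 44.9 CPM, FH at 17.9, 6.38 and 23.9 and C at 13.7, 9.67 and 9.07, which overlapped. The T4 group means of log2(CPM + 1) were 4.49 in H against 3.54 in C, and 3.92 in FH against 2.41 in F. Both stressed means were thus the higher ones, but the gene was not called at T4. The study describes its expression at T4 as running parallel to the level of a gibberellin, GA4. At T5 stressed berries had more of it, 17.2, 8.66 and 14.7 CPM in H and 7.03, 13.5 and 8.26 in FH against 2.65, 3.37 and 5.47 in C and 7.46, 4.76 and 3.07 in F (log2FC 1.38, SE 0.45, adjusted p = 0.016). Only 1 of the 4 gibberellin oxidases that the study names had the 5 CPM needed for an L, and it is this one.

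Ethylene is made by ACC synthase followed by ACC oxidase, and both oxidases among the members belong to that last step. ACO3 (VIT_00s2086g00010, L = -2.17) fell over ripening in C, from 515, 701 and 504 CPM at T0 to 5.55, 5.68 and 5.09 at T5 (log2FC -6.63, SE 1.0, adjusted p = 2.03e-07). At T2 it was at 3.26, 42.5 and 18.2 CPM in H, 35.5, 4.01 and 19.9 in FH, 523, 33.2 and 133 in C and 182, 86.7 and 99.8 in F, and T2 H replicate 2 and T2 FH replicate 1 lay above the lowest C library. ACO1 (VIT_11s0016g02380, L = -1.45) took the opposite course over ripening. It was nearly absent in C at T0 (0.164, 0.0555 and 0.0595 CPM) and was at 34.5, 26.1 and 46.1 CPM at T5 (log2FC 8.54, SE 1.64, adjusted p = 1.57e-05), a fold that rests on few counts at T0. At T2 it stood at 34.8, 3.98 and 3.93 CPM in H and 13.2, 73.1 and 40.3 in C, which overlapped, and at 18.4, 38 and 5.84 in FH and 75.9, 87.2 and 74.3 in F, which did not.

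NCED3 (VIT_19s0093g00550, L = -1.17) belongs to the 9-cis-epoxycarotenoid dioxygenases, which catalyse the committed step of abscisic acid synthesis. Its libraries were widely spread, with 23.8, 80.5 and 288 CPM as lowest, median and highest without heat and 5.49, 49 and 313 with heat. The groups overlapped, and the gene ranks 148 of 150. Its negative L hides unlike dates, since at T3 H held 71.2, 69.6 and 313 CPM against 62.7, 23.8 and 228 in C, with a higher mean in H, while FH held 30.1, 49.2 and 10.3 against 69.7, 195 and 38.2 in F. At T1 H stood at 41.1, 45.5 and 192 and FH at 232, 42 and 67.1 CPM, against 28.7, 25.4 and 26.6 in C and 45.8, 14.1 and 39.6 in F, so that both stressed means were the higher ones. NCED4 (VIT_02s0087g00930) and NCED5 (VIT_10s0003g03750) had L of 0.75 and 0.51, so that genes of one family lay on both sides of 0. NCED3 was called in none of the comparisons tested.

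VIT_09s0002g04080, named as a phytochrome associated protein in a group of auxin genes, and VIT_10s0003g00420, named as linked to auxin, had L of -1.25 and -1.20. The former fell in C from 63.1, 67.6 and 93.5 CPM at T0 to 2.36, 1.82 and 1.95 at T5 (log2FC -5.10, SE 0.63, adjusted p = 2.6e-09) and the latter from 103, 127 and 153 to 23.3, 15.9 and 18.3 (log2FC -2.65, SE 0.29, adjusted p = 1.55e-10). All 9 of the 16 auxin genes named at T1 that had an L lay below 0, with a median of -0.33, and 1 of them is a member. At T5 the summer stress lowered 5 of these 16 genes and raised 0, where 7.75% of all genes tested were lower and 8.57% higher. These samples were also what the study took the list from, so the list says nothing independent about a direction. VIT_09s0002g08510, listed by the study under the gene ontology term cell wall, had an L of -1.63 and T2 values of 0.0581, 0.323 and 0.367 CPM in H against 12.8, 4.86 and 8.88 in C, with no overlap.

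Counts are not corrected for gene length, so the members with the highest CPM are named without comparing them to other genes. They were VIT_08s0040g01890, VIT_18s0001g13230, VIT_03s0038g03940, VIT_14s0108g00810 and VIT_15s0046g02420, with L from -1.64 (VIT_03s0038g03940) to -1.22 (VIT_15s0046g02420). VIT_08s0040g01890 had 1098, 965 and 1049.9 CPM in C and 240.1, 135 and 127 in H at T2. At T3 H was at 751, 704 and 977 CPM, level with C (732, 548 and 965), and FH was at 410.0, 408 and 173. So the gene was low in H at T2 alone and low in FH at both dates of the heatwave. VIT_03s0038g03940 stayed lower in both at T3, with 348, 306 and 377 CPM in H and 216, 215 and 244 in FH against 430.2, 761 and 687 in C and 570.1, 766 and 1039 in F.

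**Figure D3:**
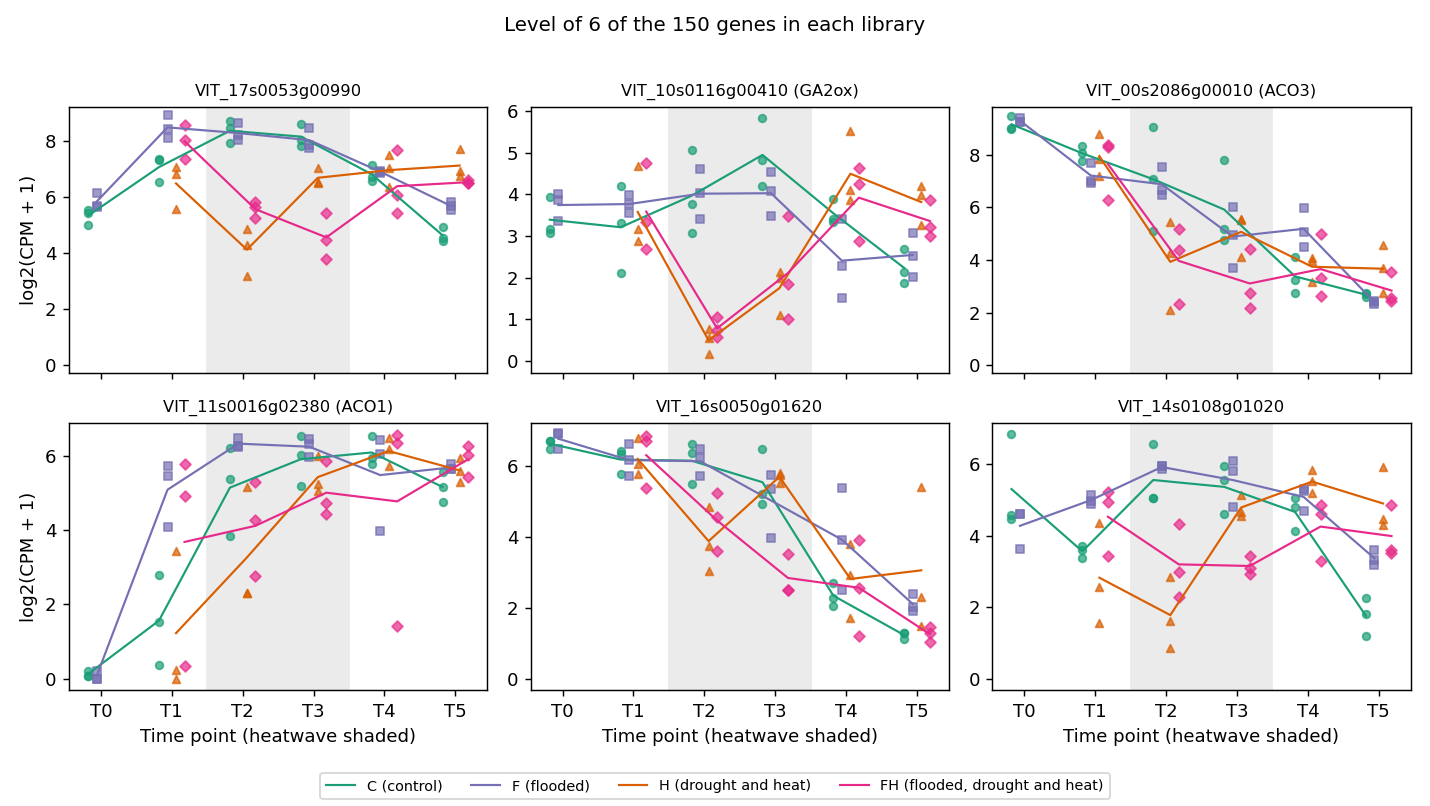
Level of 6 members in each library as log2(CPM + 1) (vertical axes) over 6 time points (horizontal axes, heatwave shaded), by treatment, with lines through group means. GA2ox is near 0 in H and FH at T2 and above C at T5, ACO3 falls and ACO1 rises over ripening, and the other 3 genes have FH below H at T3.

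At the limit of the choice, VIT_14s0068g00920 (L = -1.17) and VIT_16s0050g01990 (L = -1.17) were the last members, and VIT_14s0060g01570 and VIT_01s0011g04450 fell just outside with -1.16 each. The mean CPM of VIT_14s0068g00920 was 57.6 without heat and 31.6 with heat. For VIT_14s0060g01570 these means were 9.50 and 4.10, and the limit falls between genes of nearly equal L.

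At T1, under drought before the heat, few members were called. In simulated counts of this comparison, 9 of 48 genes changed 1.5-fold and 27 of 49 changed 2-fold were called, so changes of such size can go uncalled. In the mean of H and FH over the mean of C and F, edgeR called 2 of the 150 members lower and 3 higher (adjusted p under 0.05 and a change of 1.5-fold or more), where 0.593% of all 19553 genes tested were lower and 0.782% higher. The median log2FC was -0.15, against 0.03 over all genes. H minus C was below 0 for 117 members (median -0.43) and FH minus F for 74 (median 0.03). Over the 12188 genes with an L, 54.3% and 46.2% were below 0. The test of the difference between H over C and FH over F (the interaction) called 0 members (0 with DESeq2) and 0 of all genes. Before adjustment, 6 members and 913 of all 19553 genes had a p under 0.05.

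VIT_16s0022g00870 was the clearest of the genes lower at T1. It was at 37.4, 65.4 and 17.2 CPM in H and 20.1, 39.4 and 29 in FH, 229.6, 105 and 103 in C and 44.1, 45.9 and 60.2 in F (log2FC -1.34, SE 0.31, adjusted p = 0.0108). FH lay under F throughout, and one H library overlapped F. VIT_07s0104g00640 was the other (log2FC -1.42, SE 0.34, adjusted p = 0.0139), and its call was lost without T1 C replicate 1 or T1 FH replicate 1. VIT_06s0004g00260, VIT_13s0067g02560 and VIT_08s0007g08540 were higher at T1, with log2 fold changes of 1.41, 1.34 and 1.09. VIT_13s0067g02560 had 12.7, 8.92 and 15.2 CPM in H and 9.58, 6.24 and 14.4 in FH against 3.92, 4.30 and 3.56 in C and 5.00, 5.83 and 3.82 in F, without overlap. These 3 calls were each lost on leaving out any of 8 or 9 of the 12 libraries, and the number of members called was 1 without T1 FH replicate 1, 2 or 3 without T1 C replicate 1, 2 or 3, T1 FH replicate 2, T1 F replicate 2 or 3 or T1 H replicate 1 or 3, and 8 without T1 FH replicate 3.

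More members were called for spring flooding at T1 than for the drought, as was so over all genes tested. The difference of counts was not itself tested. In F over C, 20 members were lower and 13 higher, which is 13.3% and 8.67% of the members where 8.52% and 6.2% of all genes tested were called. The count of 33 fell to 12 without T1 C replicate 1 and to 14 without T1 F replicate 2. Of the 20 lower genes 19 also fell from T0 to T5 in C, as did 95 of all 150 members, and 8 of the 13 higher ones rose, as did 12 of all 150. The ripening score at T1 was 0.594 ± 0.062 in F and 0.263 ± 0.051 in C (SD, n = 3), and its part in these calls was not tested. VIT_10s0003g00420 had 23.3, 23.8 and 31.3 CPM in F and 90.8, 66 and 68.5 in C (log2FC -1.31, SE 0.28, adjusted p = 0.00105), and VIT_00s0225g00230 had 2.79, 26.7 and 34.4 in F and 0.178, 0.182 and 0.0604 in C (log2FC 7.37, SE 1.42, adjusted p = 0.000483). Neither gene overlapped between the groups.

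Within the heated berries, the lowest level of the members came at T2 in H and at T3 in FH. At T2 edgeR called 0 members between FH and H (0 with DESeq2, 42 at an unadjusted p under 0.05), as it did over all genes, although FH lay above H for 134 of 150 (median log2FC 0.75). At T3 the median was -0.92, 13 members were lower in FH than in H and 1 was higher, that is 8.67% and 0.667% of the members where 0.588% and 0.772% of all genes were called. All H and FH libraries of these dates entered L, and the libraries of FH were more spread than those of H (SD 0.45 and 0.19 of the mean level at T3), so these shares are not free of the choice. In group means, FH lay above H at T2 and below it at T3 for 117 members. The share over all genes was not computed, and the libraries also chose the genes, so this is a description. For the change of FH over H from T2 to T3, a comparison added after the data had been seen, 20 members were called lower and 1 higher (0.716% and 0.455% of all genes).

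These calls rested on the spread estimated from all 66 libraries. With the libraries of the time points compared alone, 0 members were called in either comparison. Without T3 FH replicate 3, T3 H replicate 1 or T3 H replicate 3 the count at T3 was 0, without T3 H replicate 2 it was 8, and without T3 FH replicate 1 it was 35. Leaving out a library moved the count of the change from 1 (without T2 FH replicate 1) and 2 (without T2 H replicate 2 or T3 FH replicate 3) through 8 (T3 H replicate 1 or 3) and 9 (T3 FH replicate 2) to 34 (T2 FH replicate 3), 40 (T2 H replicate 1) and 46 (T3 FH replicate 1). Without the 3 libraries that stood apart the counts were 26 at T3 and 36 for the change, a setting that takes out no H or FH library of these dates. DESeq2 gave 30 and 43. The ripening score at T3 was 0.860 ± 0.066 in FH and 0.702 ± 0.029 in H, and its part was not tested.

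VIT_08s0007g02240 was among the 4 called genes with the largest differences at T3. It stood at 58.6, 6.56 and 23.4 CPM in FH and 135, 171 and 194 in H (log2FC -2.55, SE 0.55), without overlap, after 40.6, 41.4 and 88.4 and 31.7, 75 and 165 at T2. VIT_16s0050g01620 was at 10.5, 4.71 and 4.70 CPM in FH and 45.3, 55.4 and 52.7 in H (log2FC -2.96, SE 0.76), and VIT_11s0016g05840 at 18.6, 0.563 and 5.65 and 39.3, 50.3 and 44.8 (log2FC -2.48, SE 0.66). In both, every FH library lay under every H library. VIT_00s0225g00230 was the one gene higher, at 11, 91.2 and 27.7 CPM in FH and 1.91, 4.75 and 1.93 in H (log2FC 4.02, SE 1.01). C held 31.9, 136 and 109 CPM at T3, far over H, and by T4 H had reached 249, 412 and 288. The gene was at 0 counts in C at T0.

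The deficit of H and FH against C and F was smaller at T3 than at T2 for some members, which is a description since these libraries chose the genes. For the difference between the dates edgeR called 9 members up and 0 down, 6% of the members where 0.798% of all genes were called up and 0.972% down. VIT_09s0002g08510 (log2FC 3.25, SE 0.83), VIT_08s0007g00440 (log2FC 3.19, SE 0.87), VIT_16s0039g00820 (log2FC 2.42, SE 0.68) and VIT_11s0016g05840 (log2FC 2.39, SE 0.63) moved most. VIT_08s0007g00440 had 1.22, 0.269 and 0.472 CPM in H at T2 and 11.8, 19.7 and 19.2 at T3, a rise in every library, while its FH libraries held 1.85, 3.95 and 1.89 and 5.73, 0.768 and 1.28. The count was 0 without T2 C replicate 1, T2 F replicate 1 or 2, T2 H replicate 2 or 3, T3 C replicate 2, T3 F replicate 1 or T3 H replicate 3, between 1 and 5 without T2 FH replicate 3, T3 FH replicate 1 or 2 or T3 H replicate 1, and between 17 and 26 without T2 C replicate 2, T2 F replicate 3, T2 H replicate 1, T3 C replicate 1, T3 FH replicate 3 or T3 F replicate 3. With the libraries of T2 and T3 alone it was 1, without the 3 libraries that stood apart it was 4, and with DESeq2 it was 29.

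After recovery, at T4, H minus C had a median of 0.06 over the members and FH minus F a median of -0.60, or -0.05 without T4 FH replicate 2. Over both, 6 members were called lower and 0 higher, 4% against 0.276% of all genes tested lower and 0.527% higher. All 6 calls were lost without T4 FH replicate 2, the library in which the members' mean level was 2.67 where the other FH replicates had 4.12 and 4.20. It also gave 17.0% of its counts to its 10 most abundant genes, the highest share of any library. The count was 0 too without T4 C replicate 2 or 3, T4 F replicate 1 or T4 H replicate 1, 1 without T4 H replicate 3 and 3 without T4 F replicate 2. The interaction at T4 called 0 members (1 with DESeq2), and 0.00511% of all genes higher. Before adjustment, 24 members and 1628 of all 19553 genes had a p under 0.05.

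VIT_05s0102g00450 was at 4.45, 4.39 and 8.92 CPM in H and 46.5, 72.8 and 59 in C at T4, with 23.4, 14.6 and 25.1 in FH and 30.9, 29.8 and 21.6 in F (log2FC -1.82, SE 0.49, adjusted p = 0.0479). H and C did not overlap, while FH and F did. VIT_15s0024g00400 (log2FC -1.33, SE 0.32, adjusted p = 0.0327) had 6.61, 8.06 and 7.03 CPM in H and 10.7, 2.56 and 9.20 in FH against 19.9, 19 and 22.1 in C and 19.6, 11.7 and 19 in F. VIT_01s0150g00140 (log2FC -1.29, SE 0.29, adjusted p = 0.0263) had 9.89, 12.3 and 12.5 and 14.8, 8.03 and 11.6 against 28.5, 33.3 and 30.4 and 29.4, 23.7 and 27.7. Both of these were lower in every stressed library than in every unstressed one. VIT_03s0091g00680 was the fourth, with a log2 fold change of -1.35.

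At T5, the ripe stage of the controls, the direction had turned for many members in H, while FH lay about level with F over the members. H minus C had a median of 0.55 (113 members above 0) and FH minus F a median of 0.01 (76 above 0). Over the 12188 genes with an L these medians were -0.05 and 0.09. In H and FH over C and F, 37 were higher and 9 lower, 24.7% and 6% of the members where 8.57% and 7.75% of all genes were called. The median log2FC was 0.30, against 0.02 over all genes. Leaving out any one of the 12 libraries gave between 36 and 46 called members in all. In 36 of the 37 higher genes both H lay above C and FH above F, which the call on the mean of both favours. Over all 150 members FH lay above F in 76. In 32 of the 37, H minus C was larger than FH minus F, and 8 of the 37 had a mean under 1 CPM in C at T5. The number higher was 27 without T5 H replicate 3. The ripening score at T5 was 1 ± 0.01 in C, 0.977 ± 0.004 in F, 0.881 ± 0.074 in H and 0.922 ± 0.013 in FH, so that the stressed berries stood behind on it, and its part in these calls was not tested.

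VIT_08s0007g00440 had the largest rise at T5, with 1.18, 3.28 and 27.7 CPM in H and 4.48, 1.67 and 2.37 in FH against 0.290, 0.178 and 0.238 in C and 0.375, 0.786 and 0.723 in F (log2FC 3.88, SE 0.74, adjusted p = 6.98e-05). No stressed library overlapped an unstressed one, although T5 H replicate 3 stood far above the rest. VIT_09s0002g08510, the gene of the cell wall term, had 0.999, 0.374 and 4.26 CPM in H and 1.05, 0.928 and 0.570 in FH against 0.0828, 0 and 0.285 in C and 0.188, 0.218 and 0.136 in F (log2FC 3.10, SE 0.75, adjusted p = 0.0013), at few counts. VIT_14s0108g01020 was at 18.7, 21.2 and 58.7 and 27.6, 10.5 and 11.1 against 3.81, 2.53 and 1.28 and 11.1, 8.96 and 8.09 (log2FC 2.29, SE 0.49, adjusted p = 0.000282), and FH overlapped F. VIT_12s0035g00880 was at 3.95, 6.74 and 31.9 and 2.33, 3.25 and 1.14 against 0.538, 0.444 and 0.903 and 1.36, 1.88 and 2.12 (log2FC 2.46, SE 0.52, adjusted p = 0.000262), so that H lay above C while FH and F overlapped, and its interaction was -4.41. These 4 calls held without each of the 12 libraries in turn.

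Lower at T5 were 9 members. VIT_01s0010g01830 had 12.3, 12 and 7.23 CPM in H and 5.30, 5.10 and 5.84 in FH against 26.2, 18.1 and 28.4 in C and 20.2, 20.6 and 26.6 in F (log2FC -1.62, SE 0.28, adjusted p = 1.81e-05), and VIT_05s0094g00920 had 11.2, 8.05 and 5.15 and 6.35, 5.24 and 6.98 against 20.0, 17.1 and 23 and 18.2, 18.5 and 16.8 (log2FC -1.40, SE 0.44, adjusted p = 0.0114). Both were separated in all 12 libraries and were thus lower at T5 as they had been in the heat. VIT_18s0001g13210 (log2FC -1.72, SE 0.55, adjusted p = 0.0133) lost its call without T5 C replicate 1. VIT_15s0048g02970 (log2FC -1.33, SE 0.50, adjusted p = 0.0359) lost it without T5 C replicate 1, T5 FH replicate 1 or 3, T5 F replicate 3, or T5 H replicate 1 or 3.

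The test of whether FH over F differed from H over C at T5 called 5 members lower and 0 higher, 3.33% where 0.455% and 0.0511% of all genes were called. Of the 150 log2 differences 127 were below 0, against 49.0% of those of all genes tested. VIT_18s0001g13230 had 27.1, 66.7 and 202 CPM in H and 7.25, 6.62 and 7.56 in C, but 17.8, 14.5 and 14.3 in FH and 30.6, 28.1 and 21.5 in F (log2FC -4.79, SE 0.85, adjusted p = 0.00627). It was higher in H than in C in all libraries, and lower in FH than in F in all. VIT_08s0007g02470 had 20.2, 36.3 and 66 and 6.46, 6.08 and 4.99 against 20.0, 17.1 and 10.5 and 14.4, 14.3 and 12 (log2FC -2.77, SE 0.57, adjusted p = 0.018). Without T5 H replicate 3 or T5 FH replicate 2 the count was 0, without T5 C replicate 1, 2 or 3 or T5 F replicate 1 or 2 it was 1, without T5 F replicate 3 it was 2, without T5 FH replicate 3 it was 3, and without T5 H replicate 2 or 1 it was 8 or 9.

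In berries that were never stressed, most members fell over ripening. From T0 to T5 in C, 95 fell and 12 rose, 63.3% and 8% of the members where 30.9% and 26.0% of all genes tested were called. All genes tested include genes under the 5 CPM that a member needed in C and F at T2 and T3, so the shares are not over like genes. Already from T0 to T1, 36 were lower and 10 higher, against 8.99% and 7.52% of all genes. Leaving out T0 C replicate 3 or T1 C replicate 2 or 3 took that count from 46 to 27 or 28. With a replicate block it was 13, of which 7 were lower and 6 higher. The falls were deep in places, as in VIT_03s0063g02360, which went from 2024, 1822 and 1888 CPM to 0.290, 0.222 and 0.190 (log2FC -12.86, SE 1.78, adjusted p = 3.58e-08). At T2, VIT_03s0063g02360 held 377, 4.34 and 17.4 CPM in C and 0.698, 8.24 and 3.98 in H, so that C replicate 1 carried most of its L of -1.41. VIT_16s0022g00670 (-9.95), VIT_09s0002g08510 (-8.68) and VIT_04s0008g05640 (-8.49) fell next most on the log2 scale.

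For the 12 genes that rose over ripening, the median of H minus C was -1.49 at T2 and -1.40 at T3, where for the 95 falling genes it was -2.27 and -0.69, and for the other 43 genes -2.0 and -0.96. The medians of FH minus F were closer, -1.55 and -1.23 for the 12 and -1.51 and -1.45 for the 95. VIT_12s0057g01060 stood at 2.02, 3.57 and 2.75 CPM in H and 7.11, 27.9 and 28.4 in C at T3, without overlap, and went on to 259, 78.7 and 150.1 and 256, 289 and 284 at T5 (log2FC 6.45, SE 0.71, adjusted p = 2.27e-10 from T0 to T5 in C). VIT_02s0012g02810 was at 0 counts in C at T0 and at 7.54, 6.79 and 3.14 CPM at T5. These classes were formed from T0 and T5 libraries of C, and the difference between them was not tested.

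**Figure D4:**
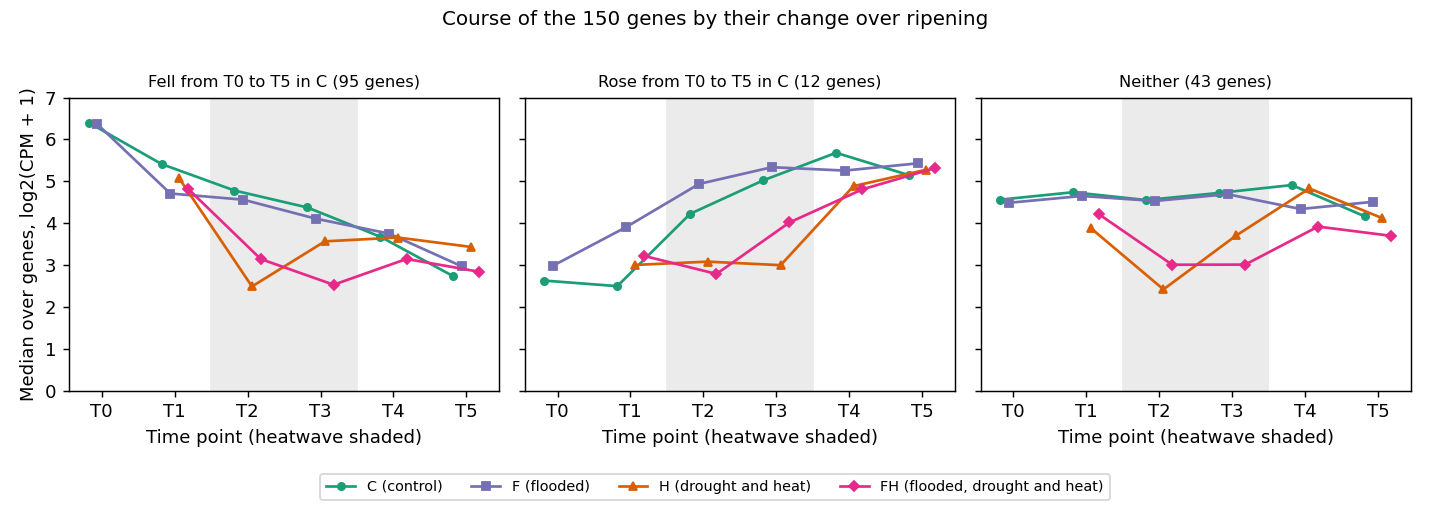
Median over genes of the group means of log2(CPM + 1) (vertical axis) at 6 time points (horizontal axis, heatwave shaded) by treatment, for the 95 members that fell, the 12 that rose and the 43 that did neither from T0 to T5 in C. The classes rest on the T0 and T5 libraries of C. In the falling genes H returns towards C at T3 and lies above it at T5. In the rising genes H and FH lie above C at T1, below it from T2 to T4 and slightly above it at T5.

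**Figure D5:**
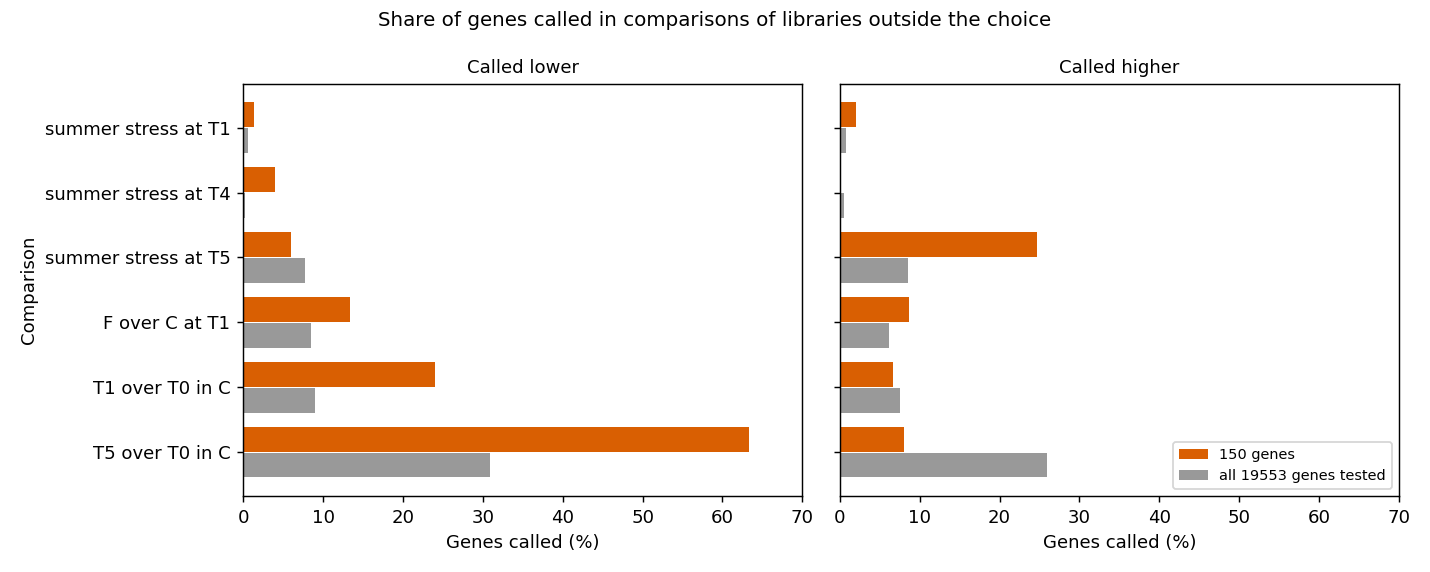
Share of genes called lower or higher (horizontal axes, %) in 6 comparisons (vertical axis) for the 150 members and for all 19553 genes tested. The widest gaps with the members ahead are the fall from T0 to T5 in C (63.3% against 30.9%) and the genes higher at T5 under the summer stress (24.7% against 8.57%). All genes tested include genes under the 5 CPM that a member needed, so the shares are not over like genes.

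The members lay on all 19 chromosomes, with 4 (chromosome 19) to 10 (chromosome 16) on each as read from the gene IDs, and 10 had an ID of no chromosome. Coordinates were not at hand. Gene IDs run along the chromosomes, and 24 of the 150 members (16%) had another member within 5 places of the numbering, where 637 of the 12038 other genes with an L (5.29%) had a member that near. Runs of 3 were VIT_12s0059g00750, VIT_12s0059g00760 and VIT_12s0059g00770, with L of -1.34, -1.45 and -1.85, and VIT_17s0000g00710, VIT_17s0000g00720 and VIT_17s0000g00730, with -1.38, -1.27 and -1.67. VIT_11s0016g05830 and VIT_11s0016g05840 (L = -1.78 and -2.32) were both among the genes whose FH over H turned from T2 to T3, with log2 changes of -4.41 and -4.18. Whether such neighbours are near-identical copies was not tested, and only uniquely mapping reads had been counted.

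Across the 66 libraries the median Pearson correlation over the 11175 pairs of members was 0.47, and it was 0.28 on the deviations of libraries from their group means. Both describe these libraries alone, since the pairs share depth, dates and the choice itself.

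VIT_07s0141g00290 lies outside the naming rule and is added after its values were seen. It has an L of -1.31 and an ID of chromosome 7. It was among the genes measured by quantitative PCR, without a stated role. Its primers are shown because they are the sequences at hand for a member:
VIT_07s0141g00290 forward primer: aggaagtgaggtggtgaggaa
VIT_07s0141g00290 reverse primer: aggtctggctggatcattacc
By counts the gene had 6.45, 6.89 and 6.34 CPM in H and 8.29, 6.48 and 4.70 in FH at T2 against 62.9, 18.3 and 19.8 in C and 32, 16.9 and 22.6 in F. Heated and unheated libraries did not overlap at T2. From T0 to T5 in C it fell from 86.4, 88.1 and 74.3 to 23.5, 17.1 and 14.6 CPM (log2FC -2.09, SE 0.35, adjusted p = 1.73e-06).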

How the data were processed

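Berry RNA of 66 libraries was analysed, each assigned to its group by its label. The deposited counts are whole numbers per gene row, not normalized: the authors aligned stranded single-end reads of 75 bases with TopHat to a revised 12X Pinot Noir genome and counted uniquely mapping reads. The paper states no trimming and counting by Bedtools coverage, whereas the deposited notes name Trimmomatic 0.39 and featureCounts. The notes and the paper also differ on the tunnel numbers and on whether the heatwave lasted 6 days or 1 week. 300 rows sharing 149 IDs were summed.

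The 19553 genes that reached 0.5 CPM in 3 or more libraries entered edgeR 4.0.16 under R 4.3.3 (TMM, quasi-likelihood, robust, a mean per group). Shares over all genes tested thus take in genes below the 5 CPM needed of a member. A gene was called where its adjusted p (Benjamini-Hochberg, over every gene of that comparison) was under 0.05 and its change 1.5-fold or more. The study itself used DESeq2, which was an alternative here (version 1.42.0). Other alternatives were RLE normalization, no filter, the libraries of the time points alone, a replicate block, separate rows and leaving out each library, for which the trended dispersion of all libraries was kept. Scripts were tested on simulated data. Members and lists were chosen with earlier results of these data known.

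Named were the 12 lowest L, the 2 genes on either side of the limit, the 5 members with the highest CPM without heat at T2 and T3, members with a role in the paper, and up to 4 called members per direction at T1, T4 and T5, per comparison of FH with H, interaction or change, and for the fall and the rise from T0 to T5. Lists of other tissues' marker genes were not used, since 0 of 29591 reference rows held an ID of the files.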

Additional observations from a re-analysis of the deposited data

Results flagged for a closer look

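The response to the summer stress differed between flooded and unflooded vines at T5 for 5 members by the test of the interaction. The 4 largest differences on the log2 scale were -5.00 for VIT_16s0050g01620, -4.79 for VIT_18s0001g13230, -4.41 for VIT_12s0035g00880 and -2.77 for VIT_08s0007g02470. In VIT_16s0050g01620 1 library stood out, with 1.82, 3.93 and 41.3 CPM in the 3 H libraries at T5 and 1.46, 1.07 and 1.76 in FH.

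For the change of the stress effect from T2 to T3 edgeR called 9 members, from the libraries that also chose the genes, so the values are a description. The largest changes were 3.25 for VIT_09s0002g08510, 3.19 for VIT_08s0007g00440, 2.42 for VIT_16s0039g00820 and 2.39 for VIT_11s0016g05840, all towards a smaller deficit under heat.

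For the change of FH over H between the same dates 21 members were called, a comparison added after seeing the data and drawn from the same libraries. Its values are a description too. VIT_00s0225g00230 moved by 5.08, VIT_11s0016g05830 by -4.41, VIT_11s0016g05840 by -4.18 and VIT_18s0001g13230 by -3.90. VIT_11s0016g05830 was at 11.2, 4.45 and 1.62 CPM in FH and 1.16, 1.24 and 1.52 in H at T2, and at 3.47, 0.102 and 1.14 and 8.49, 8.43 and 6.21 at T3, so that the order of the treatments turned in the group means.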

How the results depend on the processing

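Replicates differed by more than counting error in every pair (chi-square per degree of freedom 1.87 or more), so the spread between libraries, 3 per group, and not depth alone set the precision. The number of members called changed by over 1.5 times in these settings. With DESeq2 it was 13 at T1, 10 at T4, 1 for the interaction at T4 (0 with edgeR), 11 for the interaction at T5, 30 for FH over H at T3, 29 for the change of the stress effect and 43 for the change of FH over H. Without a filter on low counts it was 2 at T1, 3 for the interaction at T5 and 5 for the change of the stress effect. With the libraries of the time points compared alone it was 2 at T4, 0 for FH over H at T3, 1 for the change of the stress effect and 0 for the change of FH over H. Without the libraries that stood apart, a setting chosen after seeing the data, it was 9 at T1, 0 at T4, 26 for FH over H at T3, 4 for the change of the stress effect and 36 for the change of FH over H. The cause was not tested in any of these.

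Replicate numbers are shared by the groups, but the labels do not say that they mark a vine, day or batch. The correlation of same-numbered libraries' deviations from their group means ran from -0.61 to 0.69 (median -0.01), and every correlation was over 0.1 in 3 of 31 pairs of groups, so the numbers were not taken as a pairing. With a replicate block the count was 0 at T4, 2 for the interaction at T5, 1 for the change of the stress effect, 13 for T1 over T0 in C (7 lower and 6 higher, where 36 and 10 were called without the block) and 12 for the change of FH over H, and within 1.5 times of the count without the block in the other comparisons.

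Leaving out 1 library at a time gave 1 to 8 called members at T1 (5 with all libraries), 0 to 9 at T4 (6), 36 to 46 at T5 (46), 0 to 9 for the interaction at T5 (5), 0 to 35 for FH over H at T3 (14), 12 to 30 for F over C at T1 (33), 0 to 26 for the change of the stress effect (9), 27 to 37 for T1 over T0 in C (46), 100 to 106 for T5 over T0 in C (107) and 1 to 46 for the change of FH over H (21). The numbers of calls at T5 under the summer stress and from T0 to T5 in C stayed within 1.5 times under each alternative run. Of the 468 refits of single named genes that left out 1 library, 173 lost the call and 0 changed direction.

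The choice of genes kept 135 to 145 of the 150 when 1 of its 24 libraries was left out and 96 when T3 alone was used, and 106 to 150 under the other alternatives. The median of L was -1.40 with TMM scaling and -1.15 on log2(CPM + 4).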
